A study of Mus musculus with 6 samples.

Results

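Butyrate uptake, activation and sensing were followed through 10 genes in the heart ventricle of WD-fed mice. The genes were chosen by name for their known roles in short-chain fatty acid (SCFA) transport, activation, first oxidation and receptor signalling. Earlier results of these data were known when they were chosen. All 10 were found by Ensembl identifier among the 54232 genes of the count files. They comprise the transporter genes *Slc16a1* and *Slc16a3* with their partner *Bsg*, the acyl-CoA synthetase genes *Acss1*, *Acss2* and *Acsm5*, the dehydrogenase gene *Acads*, and the receptor genes *Ffar2*, *Ffar3* and *Hcar2*. RNA was sequenced from 3 mice given Tributyrin and 3 mice given vehicle, which the sample labels call PBS. All mice were wild-type (WT) C57BL/6J fed WD for 15 weeks, and Tributyrin was then needle-fed at 5 g/kg body weight for 3 weeks. The labels give neither the age nor the sex of the single mice. No group on normal chow is among the samples analysed, so every value below is from WD-fed mice. Whether a sample is 1 mouse or a pool is not stated, and the p-values measure the spread between these 6 samples, each taken here as 1 mouse.

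Tributyrin is a triglyceride of butyrate, and lipases release butyrate from it. Butyrate enters cells through monocarboxylate transporters, which carry it together with lactate, pyruvate and ketone bodies. Inside the mitochondrion it is joined to coenzyme A by an acyl-CoA synthetase, and butyryl-CoA then takes the first step of β-oxidation through short-chain acyl-CoA dehydrogenase. Butyrate also acts from outside the cell on G-protein coupled receptors, and the heart is known as an organ that burns fatty acids and ketone bodies.

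Between 20369746 and 32734485 reads were counted on genes per library. Mitochondrial transcripts took 23.6% to 26.5% of the counts with vehicle and 25.9% to 28.8% with Tributyrin. The ventricular cardiomyocyte markers (*Myh6*, *Myl2*, *Myl3*, *Tnnt2*, *Tnni3*, *Actc1*, *Ryr2*) were abundant in all 6 libraries, and their summed normalized counts overlapped between the groups. Among them *Tnnt2* (log2 fold change 0.23), *Tnni3* (0.21) and *Actc1* (-0.21) had an unadjusted p under 0.05 in edgeR. In *Tnni3* the groups did not overlap. Atrial markers stood apart in some libraries. Their sum ran from 1414 to 4786 normalized counts with vehicle and from 815.4 to 1687 with Tributyrin, and 4 of 5 (*Myl7*, *Sln*, *Mybphl*, *Myl4*) had an unadjusted p under 0.05 in edgeR. The Y-linked gene *Ddx3y* had at least 1571 counts in every library and *Xist* at most 6, so the libraries did not differ in sex by these genes.

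The genes lay far apart in level, as the plot of levels per kilobase shows. Levels are counts divided by the size factor of the library and by the length of all annotated exons, so that genes can be compared, and the mean ± SD is over all 6 mice. *Bsg*, which encodes basigin, the glycoprotein that carries MCT1 and MCT4 to the cell membrane, had the highest level with 16524 ± 1262 normalized counts per kilobase. It was at rank 49 of the 25559 genes with a count and an annotated exon length. *Acads*, which encodes short-chain acyl-CoA dehydrogenase, followed at 3692 ± 158, then *Acss1*, which encodes the mitochondrial acetyl-CoA synthetase, at 2903 ± 108. *Slc16a1*, which encodes MCT1, was at 1556 ± 70.8. These 4 genes were within the top 527 by level.

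The other synthetase genes and the second transporter formed a lower tier. *Acss2*, which encodes the cytosolic and nuclear acetyl-CoA synthetase, was at 83.8 ± 4.08 normalized counts per kilobase, and *Acsm5*, of the mitochondrial medium-chain acyl-CoA synthetase family, at 83.5 ± 18.3. *Slc16a3*, which encodes MCT4, a lactate exporter of glycolytic cells, was at 12.7 ± 2.14. From *Bsg* down to *Ffar2* each gene lay above the next in every mouse, except *Acss2* and *Acsm5*, whose ranges over the mice overlapped. With the longest annotated transcript as the length, *Acss2* rose to 236 per kilobase and *Acsm5* to 106, and their ranges then no longer overlapped, since the exons of *Acss2* add up to 10163 bases but its longest transcript to 3609.

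**Figure D1:**
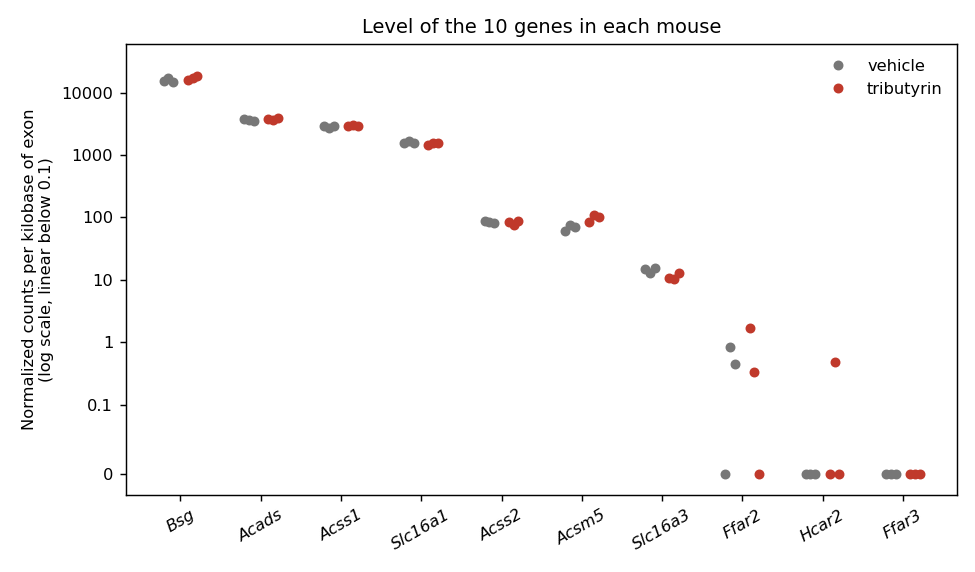
Normalized counts per kilobase of exon of the 10 genes in each of the 6 mice, ordered by their mean, on a log axis that is linear below 0.1. Each point is 1 mouse (grey, vehicle, red, Tributyrin), and the levels run from 15028 and above for *Bsg* to 0 for *Ffar3* in every mouse.

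The receptor genes were at or near 0. *Ffar3*, which encodes the SCFA receptor GPR41, had 0 counts in each of the 6 libraries. For a count of 0 a floor of 3 counts was set. Over 160100223 counts in all this is 0.0187 CPM, the count scaled to a library of fixed size. The exact 95% Poisson interval of *Ffar3* reached 3.69 counts, or 0.023 CPM. *Hcar2*, which encodes the receptor for butyrate, β-hydroxybutyrate and niacin, had 1 count, in Tributyrin replicate 2. *Ffar2*, which encodes the SCFA receptor GPR43, had 0, 3 and 1 counts in vehicle replicates 1 to 3, in that order, and 5, 1 and 0 in the Tributyrin replicates. Its level over all libraries was 0.0625 CPM (exact 95% Poisson interval 0.03 to 0.115). The interval was 0.0139 to 0.131 with vehicle and 0.027 to 0.16 with Tributyrin, so a difference between the groups was not detectable at this depth. These intervals and floors cover counting error only.

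Set against the transporter genes, the gap was wide. The counts of *Slc16a1* per kilobase, summed over the libraries, were 5855-fold the set floor of 3 counts for *Ffar3* and 2650-fold the counts of *Ffar2*. *Ffar2* was at 0.547 normalized counts per kilobase over the 6 mice, or 0.321 without Tributyrin replicate 1, which held 5 of its 10 counts. Even *Slc16a3*, the lowest of the 10 genes that passed the filter on low counts, was at 47.2-fold that floor for *Ffar3* and at 21.4-fold *Ffar2*. *Ffar2* and *Ffar3* lie on the minus strand of chromosome 7, 30554 bases apart (GENCODE M21, GRCm38), and *Ffar1*, a long-chain fatty acid receptor gene from the same family, had at most 2 counts in a library. Markers of cells known to carry these receptors differed in level. The macrophage and monocyte list of 5 genes, led by *Csf1r* with 654 to 1406 counts, summed to 1290 to 1621 normalized counts with vehicle and 1224 to 1554 with Tributyrin. The neutrophil list of 5 genes summed to 23.6 to 44.7 normalized counts with vehicle and 12.6 to 40.2 with Tributyrin, with *Ly6g* at 0, and the adipocyte list of 5 genes to 17.4 to 57.4 and 14.9 to 78.6. For nerve and Schwann cells, *Dbh* had 106 to 222 counts while *Th* had at most 1. Their part in the receptor counts was not tested.

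The promoters of the transporter genes and of *Acsm5* are shown because the results turn on them, *Slc16a1* and *Slc16a3* for their unequal levels and *Acsm5* for its difference between the groups. The sequences are the 250 bases before the RefSeq start, 5′ to 3′ (GRCm38.p6), with matches to GGGCGG on either strand in capitals. The RefSeq starts of *Slc16a3* and *Acsm5* lie inside the genes as GENCODE M21 draws them, and so do the whole stretches printed for these genes. Those of *Acss1*, *Acss2* and some of *Ffar2*, used below, also lie inside.
*Slc16a1*, chr3:104638414-104638663, plus strand: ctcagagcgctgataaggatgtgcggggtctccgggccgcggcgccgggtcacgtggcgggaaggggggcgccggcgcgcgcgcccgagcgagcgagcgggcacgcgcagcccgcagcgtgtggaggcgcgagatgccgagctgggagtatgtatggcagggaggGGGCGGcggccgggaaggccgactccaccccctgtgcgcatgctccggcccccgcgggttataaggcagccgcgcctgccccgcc
*Slc16a3*, chr11:120948817-120949066, plus strand: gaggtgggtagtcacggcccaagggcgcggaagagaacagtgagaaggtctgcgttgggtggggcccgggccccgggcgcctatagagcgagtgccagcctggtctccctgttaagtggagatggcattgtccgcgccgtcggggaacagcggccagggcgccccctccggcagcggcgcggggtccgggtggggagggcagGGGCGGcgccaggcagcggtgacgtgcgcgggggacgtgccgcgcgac
*Acsm5*, chr7:119526015-119526264, plus strand: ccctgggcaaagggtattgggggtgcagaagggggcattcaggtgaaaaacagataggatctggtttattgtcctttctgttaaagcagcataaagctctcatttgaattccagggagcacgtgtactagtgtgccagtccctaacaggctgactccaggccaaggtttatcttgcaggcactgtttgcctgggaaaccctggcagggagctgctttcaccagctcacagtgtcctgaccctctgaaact

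The transporter promoters were rich in the dinucleotide CG, with 37 in *Slc16a1* and 29 in *Slc16a3*, against a median of 6 over 32851 promoters of the same length. The *Acsm5* promoter held 1. *Acads*, *Acss1* and *Acss2* held 14, 15 and 13, *Ffar3* held 3, and the 4 starts of *Ffar2* held between 3 and 9. The match to GGGCGG, found in 32.7% of all these promoters, was present once in *Slc16a1*, *Slc16a3* and *Acads*. It was at 2 places in *Acss1* and 4 in *Acss2*, once in 2 of the 4 *Ffar2* starts, and absent from *Acsm5* and *Ffar3*. These 2 *Ffar2* stretches overlap and hold the same match. In level, *Slc16a1* was at 102 to 152 times *Slc16a3* in single mice. A match is a run of letters and not a known site, and *Bsg* and *Hcar2* have no entry in the promoter table.

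The comparison of WD + Tributyrin with WD + Vehicle asked whether a treatment that raises butyrate altered the transcripts that handle it. Of the 10 genes, 7 passed the filter on low counts and were tested, all except the receptor genes. Under the quasi-likelihood test of edgeR, adjusted by Benjamini-Hochberg over 14133 genes, 0 of the 7 passed a false discovery rate (FDR) of 10%, as did 0% of all genes tested. DESeq2 called 0 of the 7 at this rate and 0.0835% of its genes. At an unadjusted p under 0.05 there was 1 of the 7, *Acsm5*, where 4.25% of all genes tested had such a p, 1.97% higher and 2.28% lower with Tributyrin. *Acsm5* was also the single one by DESeq2, where 1.8% of genes had such a p, and by limma-voom, where 4.28% did. The groups did not overlap in 1 of the 7, again *Acsm5*, against 8.91% of all genes tested, and 0 of the 7 were apart in the lower direction, against 4.65%. Of the 7, 4 had a log2 fold change above 0 and 3 below, with a median of 0.05, where 49.6% of all genes tested were above 0. Scaling by library size alone left 2 above 0, and *Slc16a3* then also had an unadjusted p under 0.05 (0.0407 in edgeR, adjusted 0.804). This made 2 of the 7, where 798 of the 14133 genes tested had such a p under that scaling, against 600 under TMM scaling. That scaling moved the median log2 fold change over all genes tested to -0.0736. In bulk tissue, fewer cells of a type and less RNA per cell cannot be told apart.

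*Acsm5* separated the groups. Its product belongs to the enzymes that join medium- and short-chain fatty acids to coenzyme A in the mitochondrial matrix. In the mice given vehicle its normalized counts were 229.7, 284.6 and 270.8. In the mice given Tributyrin they were 323.5, 413.0 and 380.8. Every Tributyrin mouse lay above every vehicle mouse, which was the case, in this direction, for 4.26% of all genes tested. The vehicle mean of 261.7 ± 28.5 (SD, n = 3) compared with 372.5 ± 45.3 (SD, n = 3) in the Tributyrin mice, 42.3% higher. The log2 fold change was 0.51 (standard error 0.127, 95% interval 0.23 to 0.79), and the unadjusted p of 0.00238 in edgeR's model put it at rank 25 of all genes tested. The adjusted p was 0.999 in edgeR and 0.374 in DESeq2. Without the filter on low counts edgeR gave an adjusted p of 0.0187 for it, in a fit that called 167 genes at 10%. Leaving out any single mouse kept the log2 fold change between 0.42 and 0.61.

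*Acsm5* is a protein-coding gene on the plus strand of chromosome 7, from 119519463 to 119545551 (GENCODE M21, GRCm38). It overlaps *Pdilt* on the opposite strand over 104 exon bases, and *Pdilt* had at most 1 count in a library. Of its stretches of 50 bases, the read length of the study, 1.58% are shared with another gene's transcripts, mainly *Pdilt*. The related genes were almost silent, with *Acsm1* and *Acsm4* at 0 counts, *Acsm2* at 2 counts in a single library and *Acsm3* at no more than 4. Among other measures, the summed endothelial markers also lay apart, at 20617 to 21283 normalized counts with vehicle and 22079 to 24038 with Tributyrin, but this rested on *Fabp4* (log2 fold change 0.28). Without it, an alternative chosen after seeing the data, the other 4 summed to 12779 to 13104 and 12605 to 13719, which overlapped. The atrial sum and the mitochondrial share overlapped between the groups, though 4 of 5 atrial markers had an unadjusted p under 0.05 in edgeR. Their part in the *Acsm5* difference was not tested.

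**Figure D2:**
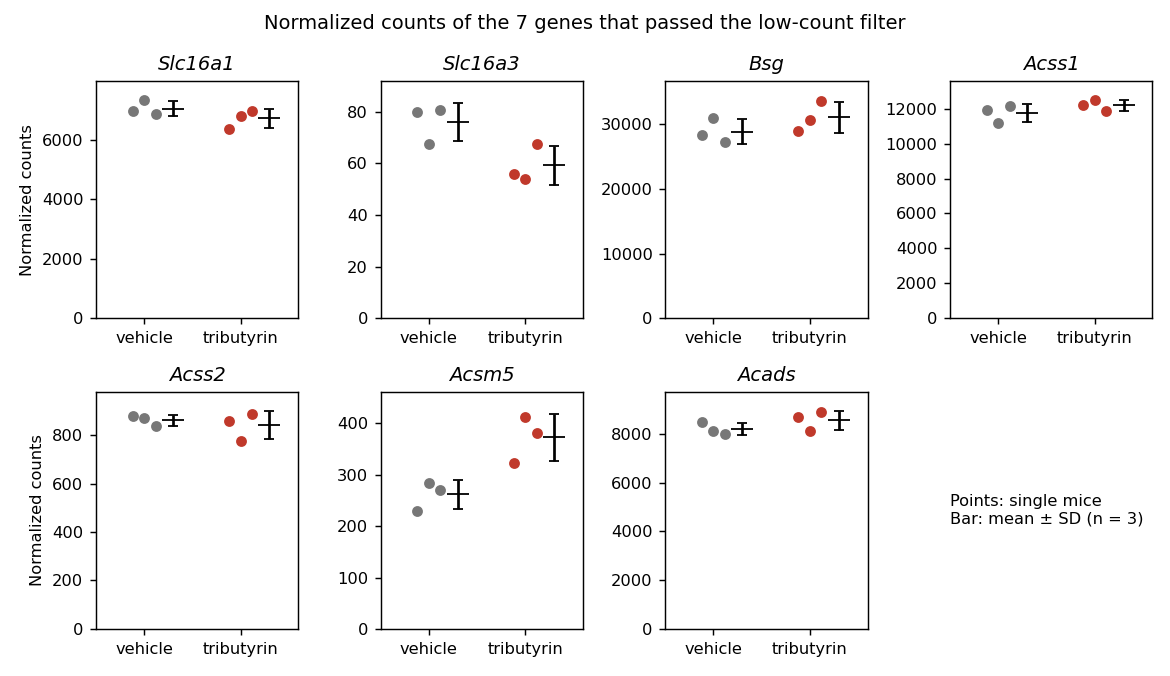
Normalized counts of the 7 tested genes in each mouse (points, grey for vehicle and red for Tributyrin) with the mean ± SD of each group (n = 3), on axes that start at 0. In *Acsm5* the Tributyrin mice, from 323.5 to 413.0, lie above the vehicle mice, from 229.7 to 284.6, and in the other genes the groups overlap.

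The transporter genes and their partner did not pass the test. *Slc16a1* had 6958, 7340 and 6862 normalized counts with vehicle and 6373, 6814 and 6985 with Tributyrin. The groups overlapped, with Tributyrin replicate 1 the lowest of the 6 mice. The log2 fold change was -0.07 (standard error 0.069), and its 95% interval corresponds to 0.858-fold to 1.06-fold. *Slc16a3* was the only other gene of the 7 with a change as large as 0.3 on the log2 scale in either direction. It had 80.0, 67.5 and 80.8 normalized counts with vehicle and 56.1, 53.9 and 67.7 with Tributyrin. The groups overlapped narrowly, since Tributyrin replicate 3 lay just above vehicle replicate 2. The log2 fold change was -0.36 (standard error 0.189, 95% interval -0.78 to 0.06, unadjusted p = 0.0863 in edgeR's model). With 59 to 87 reads in a library, counting error alone gives *Slc16a3* a relative SD of up to 13%, against 1.35% for *Slc16a1*.

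*Bsg* had 28291, 31051 and 27261 normalized counts with vehicle and 28989, 30605 and 33647 with Tributyrin. Tributyrin replicate 3 was the highest mouse and vehicle replicate 3 the lowest, and the groups overlapped. The log2 fold change was 0.11 (standard error 0.081), with an interval of 0.952-fold to 1.22-fold. Basigin pairs with the transporters, so the transcripts were also set against each other within each mouse, where the scaling of the library drops out. The level of *Bsg* per kilobase over that of *Slc16a1* and *Slc16a3* together was 9.83, 10.2 and 9.60 in the vehicle mice and 11.02, 10.9 and 11.7 in the Tributyrin mice. Every Tributyrin mouse had the higher ratio, with a mean of 11.2 ± 0.413 (SD, n = 3) against 9.89 ± 0.326 (SD, n = 3). The difference in the mean log2 ratio was 0.18 (exact permutation p = 0.1, two-sided, which is the lowest value possible for 3 mice per group, and 0.4 after adjustment over the 4 ratios tested). It stayed between 0.15 and 0.20 with each mouse left out.

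The ratio of *Slc16a1* to *Slc16a3* was 104.5, 130.7 and 102.1 with vehicle and 136.5, 151.9 and 124.0 with Tributyrin. The groups overlapped in 1 pair of mice, and the difference in the mean log2 ratio was 0.29 (exact permutation p = 0.2, adjusted 0.4). *Slc16a1* thus made up nearly all of the measured transporter transcript of this pair in every mouse of either group.

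**Figure D3:**
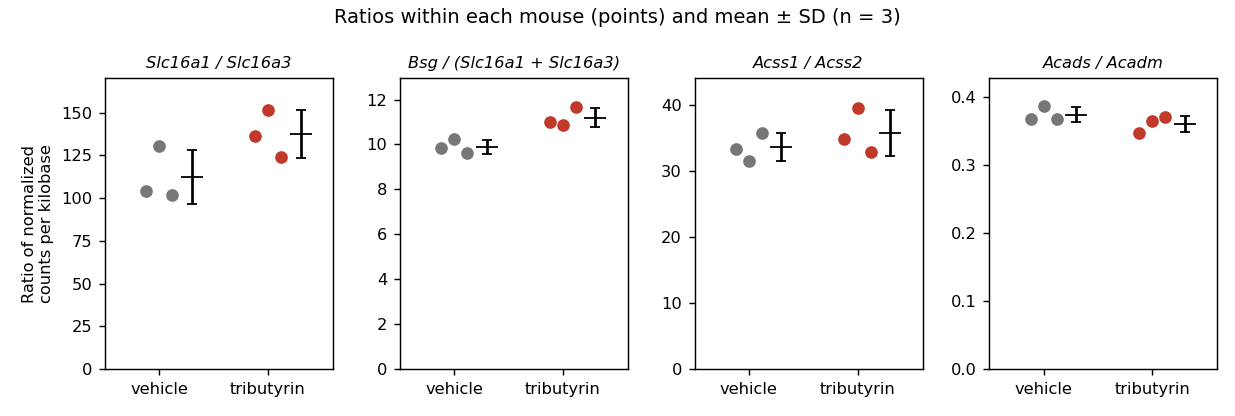
Ratios of normalized counts per kilobase within each mouse (points, grey for vehicle and red for Tributyrin), with the mean ± SD of each group (n = 3), on axes that start at 0. In the ratio of *Bsg* to both transporter genes the Tributyrin mice, from 10.9 to 11.7, lie above the vehicle mice, from 9.60 to 10.2, and in the other ratios the groups overlap.

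Of the acetyl-CoA synthetase genes, *Acss1* had 11925, 11197 and 12174 normalized counts with vehicle and 12219.7, 12504 and 11875 with Tributyrin. The groups overlapped, and the log2 fold change was 0.05 (standard error 0.067, interval 0.935-fold to 1.15-fold), or -0.02 under library size alone. *Acss2*, a target of SREBP in lipid synthesis, had 878.3, 871.6 and 836.1 with vehicle and 860.3, 775.7 and 889.0 with Tributyrin. Both the highest and the lowest mouse were given Tributyrin, and the log2 fold change was -0.03 (standard error 0.079, interval 0.864-fold to 1.102-fold). It was 0.02 without Tributyrin replicate 2. The mitochondrial enzyme's gene was 31.6 to 39.7 times the level of the cytosolic one per kilobase of exon, or 12.8 to 16.1 times by the longest transcript, and this ratio overlapped between the groups (exact permutation p = 0.5). *Acss2* shares 395 exon bases with *Gss* on the opposite strand, a gene with up to 395 counts, and 6.13% of its 50-base stretches occur in other transcripts, so a small part of its counts is uncertain.

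*Acads*, the first oxidation step for butyryl-CoA, had 8483, 8112.4 and 7993 normalized counts with vehicle and 8683, 8112.8 and 8876 with Tributyrin. Tributyrin replicate 2 and vehicle replicate 2 were almost equal, and the groups overlapped. The log2 fold change was 0.06 (standard error 0.068, interval 0.941-fold to 1.16-fold) and -0.01 with library size alone. Relative to *Acadm*, which encodes the medium-chain dehydrogenase, the level of *Acads* per kilobase was 0.348 to 0.387 in single mice, or 0.204 to 0.227 by the longest transcript, and the groups overlapped (exact permutation p = 0.3).

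Of 42 other genes of the pathway, listed by role, 32 were tested and 0 passed an FDR of 10%. The list was drawn up with earlier results of these data known. The shares over all genes, here and by role below, are therefore a description and no independent test of it. Their median log2 fold change was 0.11, with 23 above 0, against a median of -0.00128 over all genes tested under TMM scaling. With library size alone it was 0.04, with 20 above 0, against -0.0736 over all genes tested. Under TMM scaling 5 had an unadjusted p under 0.05 in edgeR, all higher with Tributyrin. Of all genes tested, 1.97% had such a p in that direction. In *Acaa2*, the thiolase gene of mitochondrial β-oxidation, the log2 fold change was 0.24 (standard error 0.089), and in *Etfb*, a subunit of the flavoprotein that takes electrons from the acyl-CoA dehydrogenases, it was 0.23 (0.081). *Mgll* (0.24), *Lipe* (0.21) and *Lpl* (0.17) encode lipases of monoglycerides, diglycerides and lipoprotein triglycerides. *Lpl* had 118589 ± 3761 normalized counts with vehicle and 133496 ± 8172 with Tributyrin (SD, n = 3). In *Mgll*, *Lipe* and *Lpl* every Tributyrin mouse lay above every vehicle mouse, as in 4.26% of all genes tested.

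By role, 10 of 10 oxidation genes had a log2 fold change above 0 under each of the 3 scalings, with a median of 0.12, or 0.05 with library size alone. Of all genes tested, 49.6% were above 0 under TMM scaling. In 4 of them, *Hadha*, *Hadhb*, *Acaa2* and *Etfb*, every Tributyrin mouse lay above every vehicle mouse, as in 4.26% of all genes tested. Of the transport genes 4 of 8 were above 0, of the synthetase genes 2 of 3, of the hydrolysis genes 4 of 5 and of the receptors and their partners 3 of 6. *Slc16a4*, a transporter gene with 4 to 27 counts, was the only one of the 32 whose Tributyrin mice all lay below the vehicle mice, as in 4.65% of all genes tested. The mitochondrial share of the libraries, which was higher on average with Tributyrin, is given above, and its part in the values of the oxidation genes was not tested. The highest levels per kilobase among the 42 were those of *Acaa2*, *Lpl* and *Acadm*. Of the transport genes, *Slc16a7*, which encodes MCT2, was at 15.7 per kilobase and so near *Slc16a3*. Its log2 fold change was -0.33 (standard error 0.167). The sodium-coupled transporters *Slc5a8* and *Slc5a12*, which take up SCFAs in gut and kidney, had 0 counts in every library, and *Emb*, the partner protein of MCT2, had 5 to 22. Of the receptors, *Hcar1*, the lactate receptor gene beside *Hcar2*, had 4 to 30 counts and *Olfr78*, an olfactory receptor that responds to SCFAs, 12 to 27. *Olfr558*, another olfactory receptor gene, had 81 to 120 counts and, at 35.4 normalized counts per kilobase, lay above *Slc16a3* in mean level. Its log2 fold change was 0.22, with a standard error of 0.162. *Gnai2*, a G protein subunit that the products of *Ffar2*, *Ffar3* and *Hcar2* couple to, had a log2 fold change of -0.03 (standard error 0.065).

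**Figure D4:**
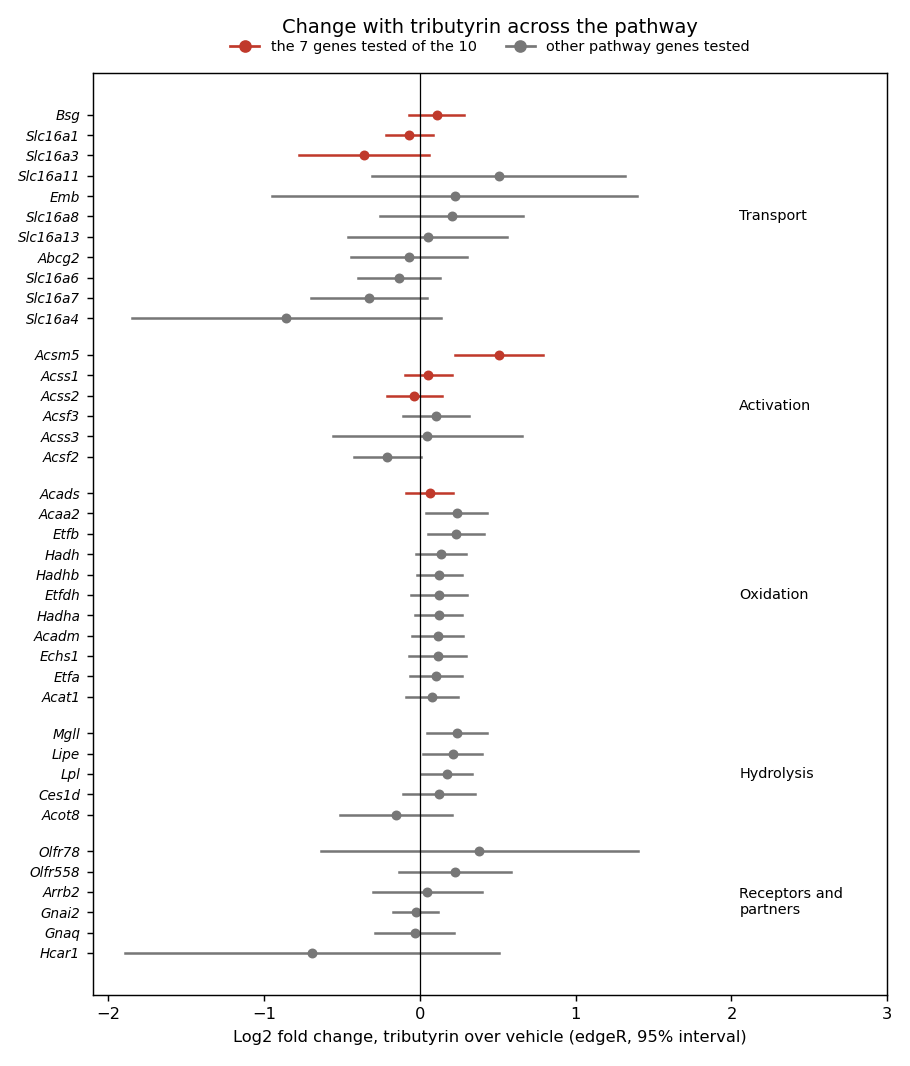
Log2 fold change of Tributyrin over vehicle with its 95% interval from edgeR, for the 7 tested genes (red) and the 32 tested other genes of the pathway (grey), grouped by role. The interval of *Acsm5* runs from 0.23 to 0.79 and does not reach 0, while those of *Bsg*, *Slc16a1*, *Slc16a3*, *Acss1*, *Acss2* and *Acads* do.

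Genes whose normalized counts followed the same course over the 6 mice were sought for the 3 tested genes of the widest range, by the root-mean-square difference of centred log2 values among 9700 genes. For *Acsm5*, whose values spanned 0.85 on this scale, they were *Echdc1* (a difference of 0.119), *Dysf* (0.123) and *Tprkb* (0.148). For *Slc16a3*, spanning 0.58, they were *Zfp862-ps* (0.069), *Cdh11* (0.081) and *Jam3* (0.090). For *Bsg*, spanning 0.30, they were *Psmd4* (0.025), *Wrb* (0.031) and *Ctsd* (0.031). With 6 mice such neighbours are a description of these libraries.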

How the data were processed

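Stranded mRNA libraries of heart ventricle from 6 WD-fed mice were sequenced as single-end reads. The authors trimmed adapters, removed poor and rRNA reads, aligned with STAR and deposited whole-number read counts per gene without normalization. Per the submitters' processing notes, cutadapt 1.13, HTSeq 0.6.1p1 and mm10 were used. For the annotation release and the counting strand, the entry is: not given in the sources used here. Names, exon lengths and positions came from GENCODE M21 (GRCm38), which held 54079 of 54232 identifiers. 0 lines named no gene.

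Groups were compared with edgeR 4.0.16 (quasi-likelihood test, TMM, filterByExpr with minimum count 10 and minimum total 15, Benjamini-Hochberg adjustment) in R 4.3.3. Thresholds were an FDR of 10% and of 5%. Standard errors are the fold change over the root of the F statistic. Normalized counts use DESeq2 1.42.0 size factors. Alternatives included DESeq2, limma-voom (limma 3.58.1), other scalings and filters, a replicate block and fits without each mouse in turn. Steps were tested on simulated data. Ratios, figures and sequences used Python 3.11.15 with scipy 1.17.1, and promoters came from RefSeq (GRCm38.p6), where 8 of 10 genes matched. The *Acsm5*/*Acsm3* ratio was not computed, as *Acsm3* had 0 counts in some mice.

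The genes and lists were chosen with earlier results of these data known. Named genes are the 10, other pathway genes at an unadjusted p under 0.05, of the 3 highest levels or sharing a role or locus with the 10, overlapping genes, and the nearest 3 genes by likeness. *Hadha*, *Hadhb*, *Slc5a8*, *Slc5a12*, *Slc16a4*, *Slc16a7*, *Acsm1*, *Acsm2*, *Acsm3*, *Acsm4*, *Olfr78*, *Olfr558* and *Gnai2* were named after their values were seen.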

Additional observations from a re-analysis of the deposited data

How the results depend on the processing

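The number of genes past an FDR of 10% was 0 in edgeR and moved to 167 with no filter on low counts, 11 with DESeq2 and 2 with the replicate block. With each mouse left out it ran from 0 to 3. The number at an unadjusted p under 0.05 was 600 in the edgeR comparison and 798 with library size alone. It was 1178 with no filter, 367 with a mean CPM of at least 5 and 731 with the replicate block. With a mouse left out it ran from 389 to 1360 (the highest without Tributyrin replicate 2, the lowest without vehicle replicate 3). The causes of these shifts were not tested. A stricter filter also leaves fewer genes to test. Of the 7 tested genes, *Acsm5* alone changed its side of the threshold, with no filter (0.51, adjusted p 0.0187). Its unadjusted p lay between 7.98e-05 and 0.0117 over all alternatives. Library size alone turned *Acss1* to -0.0183 and *Acads* to -0.0101, while it moved the median over all genes tested to -0.0736. Leaving out Tributyrin replicate 2 turned *Acss2* to 0.0195, in a range from -0.0705 to 0.0195 over the left-out mice. *Slc16a3* had an unadjusted p of 0.0407 with library size alone, and it was not tested with the CPM filter, which it did not pass. Whether the replicate numbers pair the mice is not given by the labels. The deviations of equal numbers correlated at 0.205, 0.031 and 0.0174, and those of unequal numbers at -0.185 to 0.149. These few values cannot settle it. The block turned no direction among the 7 genes. By the longest transcript the levels per kilobase moved beyond the spread between mice in 6 of the genes, most in *Acss2*, and *Ffar2* moved from 0.547 to 0.321 without Tributyrin replicate 1. The 4 ratios kept their direction in every alternative run. The receptor genes, with few or no counts, did not pass the filter on low counts and were not tested in the edgeR comparison. For these genes DESeq2 gave no adjusted p.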
